A study of Mus musculus with 4 samples.

Results

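The boundary segment between Epha4 and Pax3 is a stretch of 200 kb on chromosome 1, from 77860001 to 78060000 in mouse build mm9. It was chosen because it is the stretch that the DelB deletion removes and the shorter DelBs deletion leaves in place. It makes up 20 of the 1000 bins of 10 kb in the map, which runs from 71000001 to 81000000. A contact of the segment is a pair of bins with at least 1 bin inside it and the bins at least 20 kb apart. There were 19769 such pairs of 498501 in WT and in InvF, and 16829 of 362526 in DelBs.

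Mammalian chromosomes fold into topologically associating domains, stretches whose parts touch each other more often than they touch the neighbouring domain. Domains meet at boundaries, which often hold sites for the protein CTCF that stop the extrusion of chromatin loops by cohesin. On the left of a boundary a piece of chromatin mostly meets partners to its left, and on the right of it mostly partners to its right. Epha4 encodes a receptor tyrosine kinase for ephrins with known roles in the developing limb and nervous system, and Pax3 encodes a transcription factor of muscle precursors and neural crest.

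Contacts were measured by capture Hi-C, which ligates crosslinked DNA ends that lie close together, enriches a chosen region with probes and counts the joined read pairs. The tissue was the distal limb bud of wild-type (WT) embryos and of embryos homozygous for DelBs, InvF or DelB, all at E11.5, with 1 library per genotype. The maps put the DelBs deletion at 76390001 to 77860000 (1.47 Mb), the DelB deletion at 76390001 to 78060000 (1.67 Mb) and the InvF inversion at 74830001 to 75900000 (1.07 Mb). The segment thus adjoins the DelBs deletion and lies 1.96 Mb to the right of the inverted interval. The labels name no strain, no number of embryos per library and no other allele. The 4 libraries held 5155274 to 6073471 counts. Segment contacts took 145268 counts in WT, 180639 in InvF and 226921 in DelBs. Of the map's counts at 20 kb or more, this was 4.20% in WT, 4.27% in InvF and 5.65% in DelBs.

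A genotype is represented by 1 library, so the spread between embryos is unknown and differences carry no p-value. Intervals are exact, at the 95% level, and cover counting error only. Ratios to WT were taken after scaling each library to the WT sum over pairs that no rearrangement touches, 20 kb to 2 Mb apart. Observed over expected is the count divided by that library's mean count at the same distance along its own allele. The mean was taken over untouched pairs, those outside the rearranged intervals and on the same side of them. Along the allele a deleted stretch counts as 0 kb and an inverted one is turned. The coverage of the segment's bins was uneven, with 5894 to 14640 counts per bin in WT. Coverage moves observed over expected of raw counts, while the share of a bin's counts that face right does not depend on its own coverage.

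The data showed a boundary inside the segment in all 3 libraries that carry it. The insulation score, the log2 mean count across a point in a window of 200 kb relative to the mean of the library, was lowest within the segment after 77940000 in each of them. It was -0.76 in WT, -0.76 in InvF and -0.58 in DelBs. At that point the bins were divided into a left part of 8 bins (80 kb) and a right part of 12 bins (120 kb). Since the WT map placed the split, the WT contrast between the parts describes the boundary and is not independent of that choice. The InvF map had no part in it. The DelBs map entered only through the segment's left end, which limits where the split was sought.

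Each bin's counts with partners 20 to 500 kb away were divided into left-facing and right-facing ones. In WT the left part had 20152 left-facing and 14206 right-facing counts, a right-facing share of 41.3% (40.8 to 41.9). The right part had 21287 left-facing and 43415 right-facing counts, a share of 67.1% (66.7 to 67.5). The parts thus faced opposite ways, 25.8 percentage points apart. Among the 22 WT boundaries with complete windows on the map, this difference was the 6th largest, between a lowest of -0.85 and a highest of 37.3 points with a median of 13.4. The next boundary to the left, after 77510000, had 19.8 points, and the next to the right, after 78480000, had 26.1.

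The turn from left to right was not a single step. In WT the share was 34.5% to 38.0% over the first 5 bins of the left part. It was then 43.8% in the bin at 77910001, 48.8% at 77920001 and 53.3% at 77930001, so the last bin of the left part already faced slightly right. Between that bin and the next, at the split itself, lay the largest step, 11.4 points. A step of nearly the same size lay after 77970000, from 64.3% to 75.3%. The share was highest at 77970001 to 77980000, with 75.3% (74.2 to 76.4), and lower again towards the right end, with 59.7% in the last bin. All 12 bins of the right part were above 50% in WT, InvF and DelBs.

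**Figure D1:**
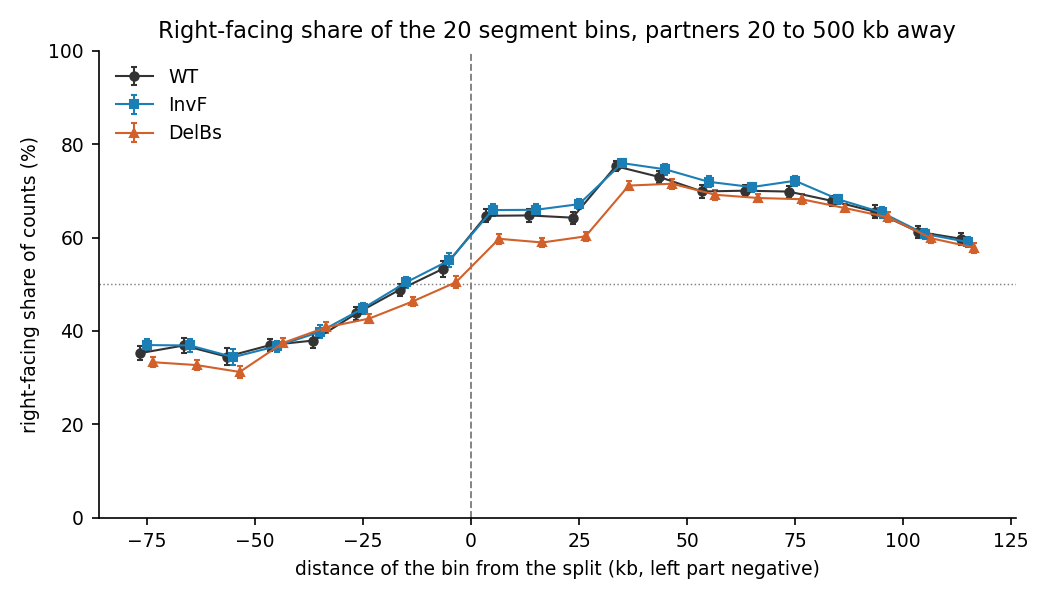
Share of right-facing counts (y axis, percent) of each 10 kb bin against its distance from the split (x axis, kb) in WT, InvF and DelBs, with exact 95% intervals for counting error. The share goes from 34.5% to 53.3% in the left part and from 59.7% to 75.3% in the right part of WT. The InvF points lie close to WT and most DelBs points lie slightly below.

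The contrast was small near the bin, larger at intermediate distances and smaller again beyond 500 kb. At 20 to 50 kb the left part of WT had a right-facing share of 48.5% and the right part 53.5%. At 110 to 200 kb the left part had 35.3% (34.2 to 36.5) and the right part 73.6% (72.7 to 74.4). At 210 to 500 kb the values were 39.5% and 75.9%. At 510 to 1000 kb they were 39.6% and 55.2%, so the right part's preference was weaker beyond 500 kb, while the left part kept its own.

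In InvF, whose inverted interval lies beyond these windows, the pattern was nearly that of WT. The left part had 42.3% (41.8 to 42.8) and the right part 68.1% (67.8 to 68.4), again 25.8 points apart. Single bins differed from WT by -0.68 to 2.90 points, with 15 of 20 higher. The step at the split was 10.8 points and the highest bin was again the one at 77970001, with 75.9%.

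In DelBs the left-facing partners are other DNA, since the deletion brings the chromatin left of 76390000 next to the segment. The left part had a right-facing share of 39.7% (39.3 to 40.1) and the right part 64.6% (64.3 to 64.9), 24.9 points apart. Bins differed from WT by -5.79 to 2.82 points, with 18 of 20 lower, among them all 12 of the right part. On the authors' balanced values 18 of 20 bins were lower too, and 11 of the 12. The first 4 bins of the right part differed by -5.79 to -4.01 points, the most at 77950001 to 77960000, which had 64.7% in WT and 58.9% in DelBs. The largest step in DelBs was after 77970000, with 10.9 points, from 60.3% to 71.1%. WT rose there too, from 64.3% to 75.3%. At the split the DelBs share went from 50.4% to 59.7%. In counts scaled to WT, the left-facing side of the bins was 1.01 to 1.34 times WT (median 1.19) and the right-facing side 0.936 to 1.25 times (median 1.05).

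No segment bin passed the limits set for a change, a share moved by over 10 points or a side moved by over 1.5-fold. For the share, 0 of 20 bins passed in DelBs, beside 0.667% of all 750 bins tested, and 0 of 20 in InvF, beside 10.1% of 897. For the counts of either side it was again 0 of 20 in both, beside 0.667% of bins in DelBs and 7.92% in InvF. A count of 0 among 20 bins is near the DelBs background of 5 in 750. With a limit of 5 points in place of 10, 1 segment bin passed in DelBs, beside 3.47% of all bins, and 0 in InvF, beside 14.4%. The InvF backgrounds take in bins whose windows reach the inverted interval, which no segment bin's window does. The counts of 0 in InvF therefore cannot show whether the segment changed less than other bins away from the inversion.

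Farther out, DelBs differed more. At 510 to 1000 kb on its allele the left part had a right-facing share of 23.5% (23.0 to 24.0) against 39.6% in WT. The right part had 30.2% (29.7 to 30.8) against 55.2%. The right part thus faced left at this distance in DelBs, and right in WT. In InvF these shares were 43.8% and 57.2%.

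Contacts across the split were fewer than expected for their distance. Pairs of a left-part with a right-part bin had 4700 counts in WT, 0.666 times the expected number (0.647 to 0.685). InvF had 5825 counts, 0.670 times expected (0.653 to 0.688). DelBs had 8233 counts, 0.805 times expected (0.788 to 0.823). The InvF interval overlaps that of WT, and the DelBs interval lies above both. This higher DelBs value was seen on raw counts only. On balanced values, which even out the coverage of bins, the 3 libraries had 0.517 in WT, 0.502 in InvF and 0.522 in DelBs.

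Within the left part, observed over expected was 0.831 in WT, 0.862 in InvF and 0.985 in DelBs. Within the right part it was 1.11, 1.15 and 1.19. The right part thus had the higher value of the 2 in each library. On balanced values both parts were below 1, at 0.713 and 0.838 in WT, in the same order. In DelBs they were 0.681 and 0.790, so the higher raw value of DelBs within the parts was not seen there either.

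With the flanks of 250 kb each part again met its own side more. The left part of WT had 1.09 times the expected counts with the left flank and 0.751 times with the right flank. The right part had 0.642 times with the left flank and 1.55 times with the right flank. The preference for the own side was therefore 1.45-fold in the left part and 2.42-fold in the right part. In InvF these ratios were 1.40 and 2.64, and in DelBs 1.39 and 2.30, although the left flank of DelBs is the DNA beyond the deletion. On balanced values the left part of WT had 0.917 times with the left flank and 0.664 times with the right flank. The right part had 0.498 and 1.29 times. The own side was thus still higher, but the left part was below 1 with its own flank, also in InvF (0.919) and DelBs (0.922).

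**Figure D2:**
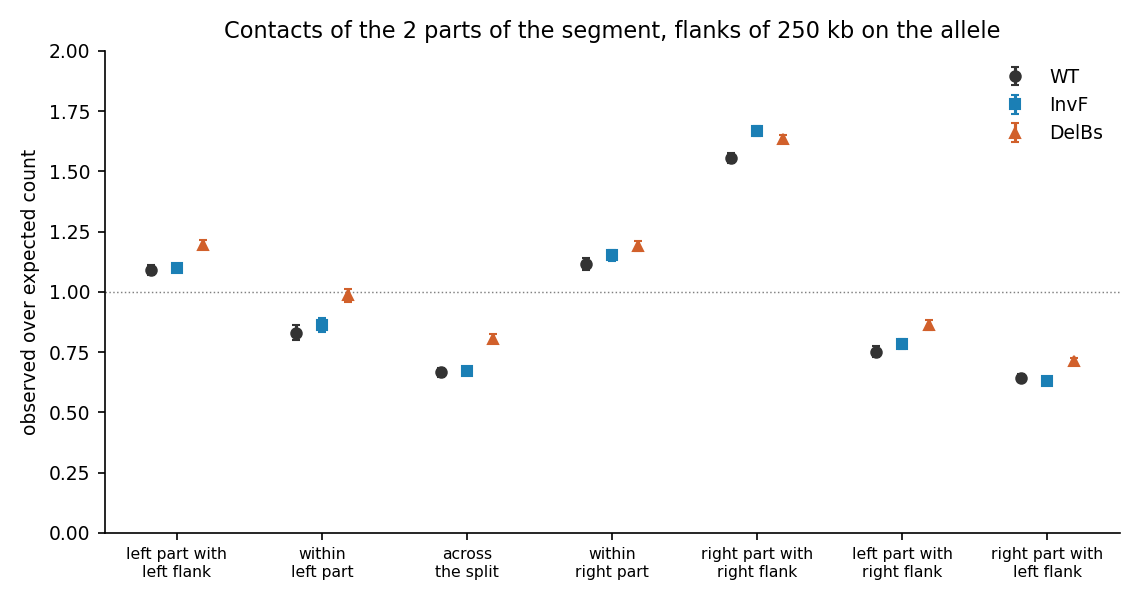
Observed over expected count (y axis) of pairs within and between the parts of the segment and with the 250 kb on either side of it on the allele, in WT, InvF and DelBs, with exact 95% Poisson intervals for counting error. Contacts across the split (0.666 in WT) and with the opposite flank lie below 1, and those of the right part with the right flank lie highest (1.55 in WT).

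To the right, contacts had a maximum at the far end of the domain that begins at the split. A region of 120 kb at 78360001 to 78480000, 300 to 420 kb from the segment's right end, had 12759 counts with the segment in WT, 3.17 times the expected number (3.12 to 3.23). InvF had 3.22 times (3.17 to 3.27) and DelBs 3.16 times (3.11 to 3.20). Its extent was chosen after the values were seen. It ends at the next WT boundary, after 78480000. The 100 kb before it had 1.57 and the 100 kb after it 1.22 times the expected counts in WT.

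The maximum belonged mainly to the right part. In WT the right part had 3.73 times (3.66 to 3.80) and the left part 2.13 times (2.05 to 2.21) the expected counts with this region. InvF had 3.71 and 2.31 times, and DelBs 3.58 and 2.36 times. The highest partner bin in WT and InvF was 78410001 to 78420000, with 4.73 and 4.77 times. In DelBs it had 4.32 times, level with the bin at 78440001, which also had 4.32. Within the segment the bin at 77970001 met the region most, with 6.20 times in WT, 6.08 in InvF and 5.57 in DelBs. It also had the highest right-facing share in WT and InvF, while in DelBs that was the next bin, with 71.5%. Its pair with 78410001 to 78420000, 440 kb apart, had 223 counts in WT and 13.1 times the expected level. The same pair had 259 counts in InvF (12.0 times) and 259 in DelBs (9.90 times).

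On balanced values the contact with this region peaked in the first 4 bins of the right part. They had 3.44 to 4.53 times the expected level in WT, against 1.08 in the first bin of the segment and 1.71 in the last. Both sides of that peak sloped off over several bins, and the 3 libraries kept the same shape, with the DelBs peak at 3.82.

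Over the whole right flank of 500 kb, counts scaled to WT differed little between libraries. InvF had 1.06 times WT (1.04 to 1.07) and DelBs 1.05 times (1.03 to 1.06). The DelBs value was 0.952 on balanced values, so its direction depends on the values used. The left part's counts with this flank were 1.16 times WT in DelBs (1.13 to 1.19), and the right part's 1.02 times (1.01 to 1.03). From 500 kb to 1 Mb on the right, DelBs had 1.05 times and InvF 1.05 times the WT counts.

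To the left, the WT segment had its highest observed over expected values not next to it but beyond 1.47 Mb. The 500 kb left of the DelBs deletion, 75890001 to 76390000, had 9016 counts with the segment in WT, 3.35 times the expected number (3.28 to 3.42). InvF had 3.61 times (3.54 to 3.67). The 1.47 Mb in between had 1.08 times in WT. The leftmost bin of the 500 kb also belongs to the inverted interval. Partner bins were ranked from 100 kb beyond the segment's nearer end to 2 Mb from its farther end. That leaves out the leftmost bins of these 500 kb. Of the 10 ranked bins with the highest WT value, 8 lay in these 500 kb, led by 76080001 to 76090000 with 5.28 times. The other 2 were in the region on the right. The window 75860001 to 75960000, which was not ranked, had 4.57 times in WT. The expected level here comes from untouched pairs and is low at this distance. With an expected level from all pairs of the map, WT had 2.67 times, and on balanced values 2.35 times.

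The left part carried most of these far contacts. It had 4.72 times (4.60 to 4.85) the expected counts with the 500 kb left of the deletion in WT and the right part 2.33 times (2.26 to 2.41). InvF had 5.11 and 2.48 times. On balanced values the highest bins were at 77880001 and 77890001, both with 3.96 times in WT. The value was 2.51 in the last bin of the left part, 2.50 in the next, and 1.16 at 77980001, the lowest. The decline thus spread over several bins with no step at the split.

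**Figure D3:**
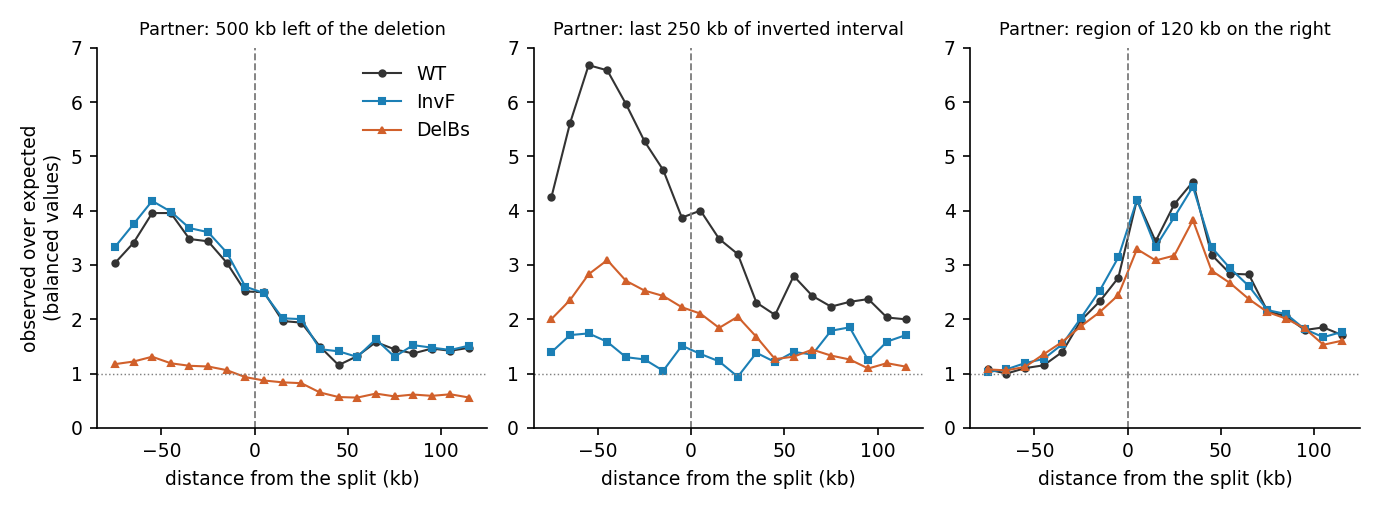
Observed over expected of balanced values (y axis) of each segment bin against its distance from the split (x axis, kb), with 3 partner regions, in WT, InvF and DelBs. In WT and DelBs, contacts with both left partners are highest in the left part (3.96 and 6.68 in WT). In InvF the last 250 kb of the inverted interval has 1.74 at most in the left part and 1.85 in the right part. In all 3 libraries contacts with the region on the right are highest in the bin at 77970001 (4.53 in WT).

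Farther left still, the inverted interval held higher values. Its last 250 kb, 75650001 to 75900000, had 5.43 times the expected counts with the segment in WT, 7.54 times with the left part and 3.84 times with the right part. The highest bin of the whole inverted interval, 75640001 to 75650000, lies just left of these 250 kb. It had 364 counts with the segment, 11.9 times the expected number (10.7 to 13.2), and was named after its value was seen. It lies near a WT boundary, after 75610000. Of the 415 pairs with at least 50 WT counts at 100 kb or more, the highest was 77890001 to 77900000 with this bin, 2250 kb apart. It had 57 counts in WT, 33.3 times the expected level. The same pair had 2 counts in InvF (2.25 times) and 259 in DelBs (18.4 times). These counts are not scaled and the distance of the pair differs between the alleles. Relative to distance the DelBs value was thus below that of WT. The sources used here give no motif or binding data for either bin.

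In DelBs the segment's contacts with the DNA left of the deletion were higher in number and lower relative to distance. The 500 kb left of the deletion had 9002 counts in WT and 53727 in DelBs, leaving out the pairs under 20 kb on the DelBs allele, which is 3.99 times WT after scaling (3.90 to 4.08). In InvF it had 11920 counts, 1.06 times WT (1.04 to 1.09). On the DelBs allele these bins lie next to the segment, and the counts were 1.29 times those expected there (1.28 to 1.30), against 3.35 in WT. This 1.29 was 0.916 on balanced values.

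The parts kept their order in DelBs. The left part had 1.60 times (1.58 to 1.62) and the right part 0.969 times (0.955 to 0.982) the expected counts with the 500 kb left of the deletion. The left part thus had 1.65 times the value of the right part, against 2.03 times in WT and 2.06 times in InvF. Relative to distance, the contacts of both parts with this flank were lowest nearest the junction. The 100 kb next to the segment on the DelBs allele had 0.576 times the expected counts with the right part and 0.986 times with the left part. In WT the right part had 0.552 times with its own left 100 kb, which is other DNA.

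The highest bin of the inverted interval was also high in DelBs. The bin 75640001 to 75650000 had 1868 counts with the segment, 6.99 times the expected number (6.68 to 7.32), 9.73 times in the left part and 4.97 times in the right part. The last 250 kb of the interval had 22578 counts, 3.10 times WT after scaling and 2.84 times the expected number. The first 250 kb had 1.86 times the WT counts. Counts with the deleted interval itself were 1127, or 0.0171 times WT (0.0161 to 0.0181).

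**Figure D4:**
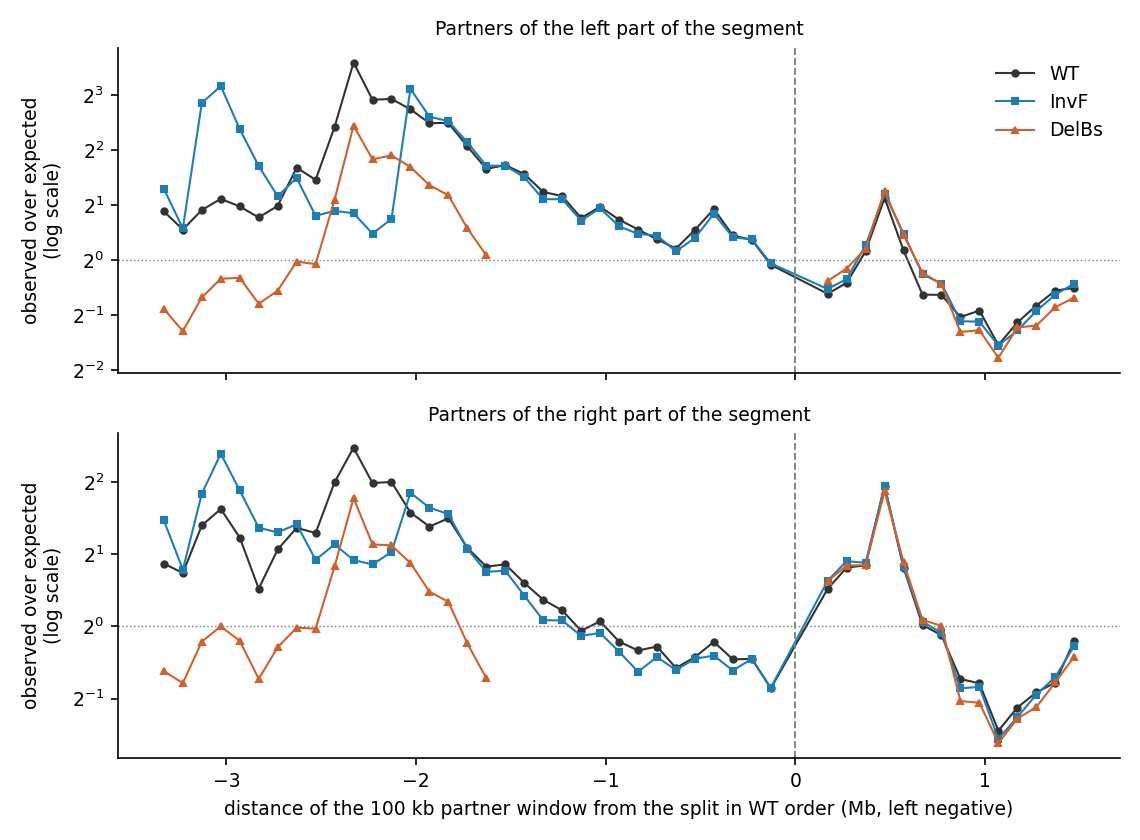
Observed over expected (y axis, log scale) of the left part (top) and the right part (bottom) with partner windows of 100 kb, against the window's distance from the split in the WT order (x axis, Mb). In WT the highest value is that of 75560001 to 75660000 (12.1 in the left part, 5.55 in the right part), where InvF has 1.81 and 1.89. All 3 libraries share the maximum on the right, at 78360001 to 78460000 (2.19 and 3.85 in WT).

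In InvF the contacts with the inverted interval were exchanged end for end, and those elsewhere stayed close to WT. The first 250 kb of the interval, 74830001 to 75080000, lies nearest to the segment on the InvF allele. It had 936 counts in WT and 6339 in InvF, 5.45 times WT after scaling (5.08 to 5.84). The last 250 kb, now the farthest, had 4869 counts in WT and 831 in InvF, 0.137 times WT (0.127 to 0.148).

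The same DNA at each end also differed from WT after allowing for its distance on each allele, and more so in the left part. Relative to the expected level at the distance on each allele, the first 250 kb had 2.34 times in WT and 5.78 times in InvF. The last 250 kb had 5.43 times in WT and 1.91 times in InvF. Compared by position on the allele, the libraries were closer. The end nearest to the segment had 5.43 times in WT and 5.78 times in InvF. The farthest end had 2.34 times in WT and 1.91 times in InvF. In counts, the left part had 8.46 times WT (7.56 to 9.48) with the first 250 kb, and the right part 3.75 times (3.43 to 4.11). With the last 250 kb the left part had 0.0939 times WT and the right part 0.201 times. At both ends the intervals of the parts do not overlap. The bin 75640001 to 75650000 had 27 counts with the segment in InvF, 1.36 times the expected number (0.895 to 1.98), against 11.9 in WT.

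Outside the inverted interval InvF differed little. The 500 kb left of the segment had 0.979 times the WT counts (0.964 to 0.995) and the interval deleted in DelBs 0.972 times (0.959 to 0.984). The 250 kb left of the inversion had 615 counts and 0.850 times WT (0.757 to 0.953).

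**Figure D5:**
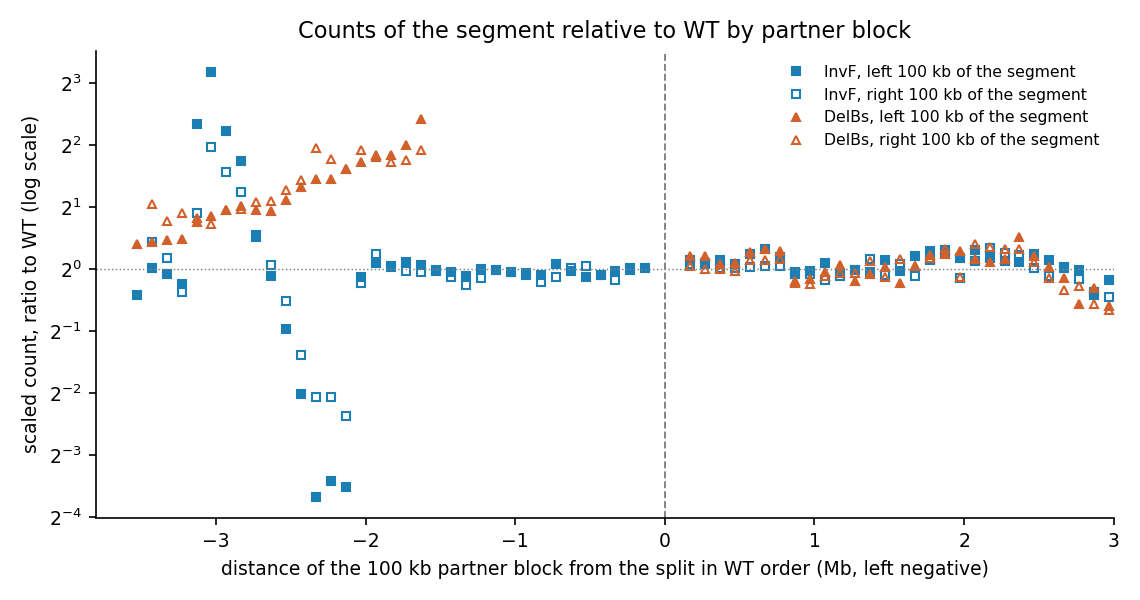
Counts of the left and right 100 kb of the segment with partner blocks of 100 kb, scaled and divided by WT (y axis, log scale), against the block's distance from the split in the WT order (x axis, Mb). InvF goes from 9.05 times to 0.0784 times WT across the inverted interval, DelBs is above WT at all blocks left of its deletion, and both lie near 1 from 0 to 1 Mb on the right.

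Blocks of 100 kb gave the same picture at a fixed limit of 1 log2 unit in observed over expected. In DelBs, 0 of the 100 segment blocks were higher, beside 0% of all 1983 blocks. There were 33 lower ones, beside 7.97% of all blocks. All 33 lay left of the deletion, where 39 segment blocks were compared, and all 33 had more scaled counts than WT, between 1.33 and 5.33 times. Of the 158 lower blocks on the whole map, 158 joined the sides of the deletion, among 210 such blocks, so the segment's share among those is not set apart from its surroundings. On the right of the segment no block passed. At a limit of 0.5 log2 units, 0 segment blocks were higher and 42 lower, beside 1.82% and 13.2% of all blocks.

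In InvF, 4 of 130 segment blocks were higher, beside 2.1% of all 2859 blocks, and 5 lower, beside 3.22%. Shares of 4 and 5 in 130 are near that background. All 4 higher blocks joined the left 100 kb of the segment to 74760001 to 75160000, with log2 differences of 1.05 to 1.93. Of the lower ones, 4 joined it to 75460001 to 75860000, with -2.74 to -1.43. The right 100 kb of the segment had 1 lower block, with 75560001 to 75660000, at -1.30. At a limit of 0.5 log2 units, 10 segment blocks were higher and 9 lower, beside 7.69% and 6.44% of all blocks. The left 100 kb here takes in the first 20 kb of the right part.

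The authors' deposited table of differences between each mutant and WT, whose formula the labels do not state, covers 73000001 to 79000000. For DelBs the authors' deposited table had 1105 of 11770 segment pairs above 0, or 9.39%, beside 1.42% of all pairs, and 1103 of these were with DNA left of the deletion. The 1.42% also covers pairs that do not join the sides of the deletion. It therefore does not set the segment apart from its surroundings. For DelBs the authors' deposited table had 8 segment pairs below 0, or 0.068%, beside 0.0128% of all pairs. For InvF the authors' deposited table had 229 segment pairs above and 243 below 0, of which 171 and 229 were with the inverted interval. These were 1.95% and 2.06% of segment pairs, beside 1.94% and 2.23% of all pairs.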

How the data were processed

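Reads were mapped with Bowtie2 2.2.6 to mm9, per the submitters' processing notes. The deposited raw maps give whole-number counts of ligated read pairs for every 2 bins of 10 kb, with reads at mapping quality 30 per the file names. The authors also deposited maps of a signal per pair, made by KR balancing per the file names, which brings bins to similar sums. The authors' deposited difference maps give each pair a score. Whether PCR duplicates were removed is not stated in the labels.

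The raw counts were analysed in Python 3.11.15 (scipy 1.17.1, numpy 2.4.6, matplotlib 3.10.9). Rearranged intervals were located from the maps, a deletion as the longest stretch of bins whose share of counts was under 10% of that in WT. Over the scaling pairs InvF had 1.24 and DelBs 1.50 times the WT counts, against 1.18 and 1.13 times by total counts, and their counts were divided by the former. Expected levels needed at least 20 untouched pairs at a distance and reached 3.63 Mb. Shares have Clopper-Pearson, observed over expected Poisson and ratios conditional binomial intervals. Blocks needed 50 counts in 1 library, with a pseudocount of 1, and bins 200 WT counts per side. The functions were tested on simulated data. No column lacked a sample (0).

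The segment, the regions and the limits were chosen with earlier results of these data known. Named regions followed a rule: the segment's bins and parts, its flanks, the rearranged intervals, the nearest WT boundaries, the 10 partner bins with the highest WT value, blocks past the limit and the 5 highest pairs. With 1 library per genotype no test between genotypes was made. Gene names come from a GRCm38 RefSeq table, in which 0 protein-coding genes lie between Epha4 and Pax3, and gene positions were not used here.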

Additional observations from a re-analysis of the deposited data

Results flagged for a closer look

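The DelB library, which lacks the segment and enters no comparison above, still had 4949 counts at 20 kb or more in its bins, its last bin left out. WT had 138707, so after scaling the DelB counts were 2.49% of WT (2.42 to 2.56). In single bins, with pairs at all distances included, they were 2.18% to 2.66%. These counts stand out because the stretch is deleted in this genotype. The DelBs library had 0.0171 times the WT level between the segment and its own deleted interval. The source of these counts was not tested.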

How the results depend on the processing

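The difference in right-facing share between the parts kept its direction in WT, InvF and DelBs under every alternative run. In WT, InvF and DelBs, in that order, it was 18.9, 19.7 and 15.7 points with a window of 200 kb, 24.5, 24.1 and 22.5 with 1 Mb, and 26.9, 27.5 and 27.6 on balanced values. Pairs at least 50 kb apart gave 32.8, 33.1 and 31.9 points. With the split 20 kb further left it was 27.1, 27.5 and 25.5 points, and 21.1, 20.9 and 21.8 further right. Dividing by expected level and partner coverage over untouched pairs was not run, since partners in the deleted interval have no such pairs. With coverage over all pairs, chosen after seeing the data, it was 31.4, 31.4 and 34.3 points.

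Observed over expected across the split stayed below 1 in all 3 libraries. In the same order it was 0.517, 0.502 and 0.522 on balanced values, and 0.640, 0.640 and 0.781 with an expected level from all pairs. With the split further left it was 0.642 in WT and 0.653 in InvF, and further right 0.735, 0.726 and 0.830.

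For the right flank, scaling to all counts gave 1.12 times WT in InvF and 1.38 in DelBs, and balanced values turned DelBs to 0.952. For the 500 kb left of the deletion, scaling to all counts gave 1.12 in InvF and 5.28 in DelBs. There InvF had 1.03 with 250 kb, and 0.635 with 1 Mb, which takes in inverted bins. DelBs had 3.77 on balanced values, 4.53 with 250 kb and 3.48 with 1 Mb. Its ratio of observed over expected to WT was 0.385, and it was likewise below 1 at the first (0.366) and last (0.523) 250 kb of the inverted interval. The cause was not tested. Observed over expected of DelBs with that flank was 0.916 on balanced values.

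With a limit of 0.5 log2 units, 10 segment blocks were higher and 9 lower in InvF, beside 7.69% and 6.44% of all blocks, and 42 were lower in DelBs, beside 13.2%. With a limit of 5 points, 1 segment bin passed in DelBs, beside 3.47% of all bins. No library could be left out, since each genotype had 1. No paired analysis was possible because each genotype had 1 library. Depth limits single pairs: 75.0% of the segment's pairs had a count in WT, 77.9% in InvF and 81.3% in DelBs.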
